A study of Mus musculus with 12 samples.

Results

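Of the 121336 open chromatin regions measured by ATAC-seq, 1954 (1.61%) were more accessible in LSK than in GMP in wild-type mice and had similar levels in URE mice in both cell types. They were chosen by their counts. Counts were scaled to CPM (the count divided by the sum of all counts of the library, times 1e6) and averaged per group, and 0.25 was added. A region was a member when WT-LSK was at least 2, the WT-LSK/WT-GMP ratio was at least 3, and the URE-LSK/WT-LSK and URE-GMP/WT-GMP ratios both lay between 0.67 and 1.5. All 4 group means entered the rule, so the levels of the members are a description, and tests are given only for regions that are no members.

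There were 4 groups of 3 libraries. Within a group the libraries came from separate mice, as the study's methods state. All mice were C57BL/6 littermates of 8 to 12 weeks. LSK were Lin- Sca-1+ c-Kit+ bone marrow cells, the compartment of stem cells and multipotent progenitors, and GMP were Lin- Sca-1- c-Kit+ CD16/32+ granulocyte-monocyte progenitors. WT-LSK and WT-GMP came from wild-type mice, and URE-LSK and URE-GMP from mice lacking the upstream regulatory element (URE) of Spi1, the gene of the transcription factor PU.1. The deletion is carried by every cell of the animal, and no treatment was given.

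When stem cells commit to the granulocyte-monocyte lineage, enhancers of stem cell genes and of other blood lineages lose accessibility while myeloid enhancers gain it. PU.1 is an ETS factor that opens myeloid enhancers, and RUNX, GATA, E-box binding, HOX and other ETS factors such as ERG and FLI1 hold the enhancers of stem and progenitor cells. The URE is the main distal enhancer of Spi1, and its deletion lowers PU.1 in stem and progenitor cells.

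The sequences of 6 members show what such regions look like. They are the centres (300 bases, GRCm38, plus strand) of members near genes of stem cells (Lmo2, Meis1, Mecom) and lymphoid lineages (Dntt, Tcf7), and near Zbtb20, where PU.1 letters were present. Capitals mark the exact letters of any motif searched, named beside each.
Near Lmo2, chr2:103930866-103931165 (ERG/FLI, RUNX, CEBP and MYB letters): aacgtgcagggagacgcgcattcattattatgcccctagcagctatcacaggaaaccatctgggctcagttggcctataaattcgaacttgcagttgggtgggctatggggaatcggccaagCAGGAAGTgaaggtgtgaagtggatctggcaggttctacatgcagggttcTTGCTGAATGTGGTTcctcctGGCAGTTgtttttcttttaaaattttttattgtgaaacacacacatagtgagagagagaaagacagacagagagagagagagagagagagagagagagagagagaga
Near Meis1, chr11:19112234-19112533 (IRF, MEIS, AP-1 and E-box letters): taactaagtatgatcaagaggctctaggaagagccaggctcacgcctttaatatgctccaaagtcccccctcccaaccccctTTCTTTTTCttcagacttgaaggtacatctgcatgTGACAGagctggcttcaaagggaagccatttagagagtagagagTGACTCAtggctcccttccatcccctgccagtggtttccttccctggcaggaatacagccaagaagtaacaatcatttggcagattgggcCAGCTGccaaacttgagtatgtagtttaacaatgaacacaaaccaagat
Near Mecom, chr3:30477020-30477319 (MEIS and IRF letters): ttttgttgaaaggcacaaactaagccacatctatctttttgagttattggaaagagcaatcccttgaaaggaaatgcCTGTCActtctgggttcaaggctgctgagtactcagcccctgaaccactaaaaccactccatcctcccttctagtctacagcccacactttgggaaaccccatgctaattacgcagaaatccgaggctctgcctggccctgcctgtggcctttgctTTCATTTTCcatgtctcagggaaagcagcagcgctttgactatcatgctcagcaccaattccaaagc
Near Dntt, chr19:41019203-41019502 (MYB, E-box and IRF letters): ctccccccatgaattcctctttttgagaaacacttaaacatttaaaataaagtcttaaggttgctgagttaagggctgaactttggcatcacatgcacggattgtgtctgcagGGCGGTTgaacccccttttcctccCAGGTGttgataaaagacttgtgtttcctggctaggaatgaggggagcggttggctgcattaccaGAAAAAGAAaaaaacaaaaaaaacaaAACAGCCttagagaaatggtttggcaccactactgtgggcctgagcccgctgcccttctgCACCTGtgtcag
Near Tcf7, chr11:52318357-52318656 (E-box and TCF/LEF letters): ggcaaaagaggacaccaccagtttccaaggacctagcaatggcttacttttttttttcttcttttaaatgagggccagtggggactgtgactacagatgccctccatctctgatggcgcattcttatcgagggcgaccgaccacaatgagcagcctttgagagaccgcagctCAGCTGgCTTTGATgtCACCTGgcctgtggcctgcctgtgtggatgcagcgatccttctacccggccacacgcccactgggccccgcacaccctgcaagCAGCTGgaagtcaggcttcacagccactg
Near Zbtb20, chr16:43376830-43377129 (RUNX, IRF and PU.1 letters): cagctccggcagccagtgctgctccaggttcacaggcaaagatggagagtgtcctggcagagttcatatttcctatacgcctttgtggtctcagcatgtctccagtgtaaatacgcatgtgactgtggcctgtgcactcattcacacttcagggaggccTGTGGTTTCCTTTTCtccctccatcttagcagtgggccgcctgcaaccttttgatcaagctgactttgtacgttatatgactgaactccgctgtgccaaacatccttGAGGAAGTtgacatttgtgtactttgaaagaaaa
A longer run of capitals can hold several matches. Those of CEBP and RUNX near Lmo2 touch, and those of RUNX and IRF near Zbtb20 overlap. A match is a description of the letters and not evidence of binding.

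Total counts per library ranged from 23072701 to 62204826, so that 3 counts stood for 0.0482 to 0.13 CPM. The deleted element was checked first. In the window 12 to 17 kb upstream of the Spi1 start codon, 5 regions summed to 55.2 to 63.3 CPM in LSK of WT and 73.1 to 85.8 in GMP of WT, but to 4.44 to 4.58 in LSK of URE and 3.91 to 6.64 in GMP of URE, and none of the 5 was a member. The promoter regions of GMP marker genes (Elane, Mpo, Ctsg, Csf3r, Prtn3 and Ms4a3, 6 of 7 with a region) summed to 45.3 to 52.9 CPM in LSK of WT and 37.1 to 72 in LSK of URE, against 209 to 243 in GMP of WT and 295 to 321 in GMP of URE. Between GMP of WT and of URE they did not move together. The means of Elane, Mpo, Ctsg and Csf3r were higher in URE. Those of Prtn3 (16.1 CPM in WT and 13.15 in URE) and Ms4a3 (14.47 and 9.5) were lower. Csf3r differed little between LSK and GMP of WT (21.65 and 25.33 CPM). For LSK markers (Hlf, Mecom, Meis1, Flt3, Hoxa9 and Procr, 6 of 7 with a region) the sums were 299.6 to 312 in LSK of WT, 293 to 318 in LSK of URE, 221 to 247 in GMP of WT and 197 to 207 in GMP of URE, so these promoters differed less between the cell types than those of GMP markers. Mecom was the largest part of these sums (mean 120.6 CPM in LSK of WT). In WT the means of Hlf, Mecom, Meis1 and Flt3 were lower in GMP than in LSK. Those of Hoxa9 (32.8 CPM in LSK and 32.93 in GMP) and Procr (7.26 and 7.89) were not. Promoter regions of megakaryocyte markers (Pf4, Itga2b, Gp9) summed to 59.7 to 82.9 and 83.3 to 85.4 CPM in LSK of WT and of URE and to 27.7 to 47.6 and 17.5 to 28.2 in GMP of WT and of URE. Erythroid markers (Gata1, Klf1, Epor, Car1) had no region within 500 bp of a start site. Of B, T and mast cell markers, 1 each had one (Ebf1, Bcl11b and Cpa3). Between the genotypes these differed in LSK, where Bcl11b had 3.94 to 4.31 CPM in WT and 7.08 to 7.53 in URE, and Cpa3 5.43 to 8.42 in WT and 11.2 to 15.4 in URE, with no overlap of the libraries. Ebf1 overlapped, with 5.51 to 6.07 and 5.4 to 7.15 CPM. In GMP the ranges of Bcl11b and Cpa3 overlapped between the genotypes, with 2.23 to 4.77 and 2.34 to 6.8 CPM over the 6 libraries. The part of this in the members' LSK values was not tested.

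WT-GMP replicate 3, URE-GMP replicate 3, URE-LSK replicate 3 and WT-LSK replicate 3 stood apart in the members. In WT-GMP replicate 3 they took up 0.379% of its counts, against 0.232% and 0.253% in WT-GMP replicates 1 and 2, and it was the highest of the 3 WT-GMP libraries in 1511 members (77.3%, against 37.3% of all regions). In URE-GMP the shares were 0.279%, 0.255% and 0.327%, with replicate 3 the highest in 57.1% of members, against 34.1% of all regions. In the same WT-GMP library the LSK markers summed to 247 CPM and the megakaryocyte markers to 47.6 CPM, against 226 and 221 and against 30.9 and 27.7 in replicates 1 and 2, and the GMP markers to 209 CPM against 243 and 231. URE-LSK replicate 3 was the highest of its group in 15.8% of members, against 42.7% of all regions. Members took up 1.37% of its counts, against 1.55% and 1.56% in URE-LSK replicates 1 and 2, and its GMP markers summed to 72 CPM, against 40.6 and 37.1. In the WT-LSK libraries members held 1.28% to 1.45% of the counts, the most in replicate 3. That library was the highest of its group in 62% of members, against 37% of all regions. The part of these differences in the members' values was not tested. Without WT-GMP replicate 3 the rule gave 2652 members, without URE-GMP replicate 3 it gave 1907, without URE-LSK replicate 3 it gave 1893, and without WT-LSK replicate 3 it gave 1624. A smaller share of cells with a region open and a lower accessibility per cell cannot be told apart in such bulk libraries.

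Across the members, the median of the group mean was 4.26 CPM in LSK of WT and 4.7 CPM in LSK of URE, and 0.819 CPM in GMP of WT and 0.799 CPM in GMP of URE. In WT-GMP 1148 of the 1954 members lay under 1 CPM and 559 under 0.5 CPM, while the highest still had 19 CPM, so a member was lower in GMP but not always near background. None had all 3 WT-GMP libraries at or under 3 counts, and 4 had all 3 URE-GMP libraries there. The median WT-LSK/WT-GMP ratio was 3.96 and the highest 20.5. The median URE-LSK/URE-GMP ratio was 4.58, from 1.69 to 25, where the rule allowed any value from 1.34 upwards. It was at least 3 in 1727 members (88.4%) and at least 2 in 1945 (99.5%). In 1951 members all 3 LSK libraries lay above all 3 GMP libraries in both genotypes, which was also true of 27.4% of all regions, and the rule favoured such members. The spread between libraries was small beside these ratios: the median SD of log2(CPM + 0.25) was 0.21 in LSK of WT, 0.20 in LSK of URE, 0.37 in GMP of WT and 0.23 in GMP of URE (n = 3 each).

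The members were 30.8% of the 6343 regions that met the first pair of conditions, called LSK-high here. Among LSK-high regions the URE-LSK/WT-LSK ratio lay within the window in 3028 (47.7%), under it in 1871 (29.5%) and over it in 1444 (22.8%). For URE-GMP/WT-GMP the numbers were 3194 (50.4%), 2065 (32.6%) and 1084 (17.1%). For comparison, 875 LSK-high regions had a URE-LSK/WT-LSK ratio of at most 0.33 (lost in mutant LSK) and 158 had a URE-GMP/WT-GMP ratio of at least 3 (staying open in mutant GMP).

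**Figure D1:**
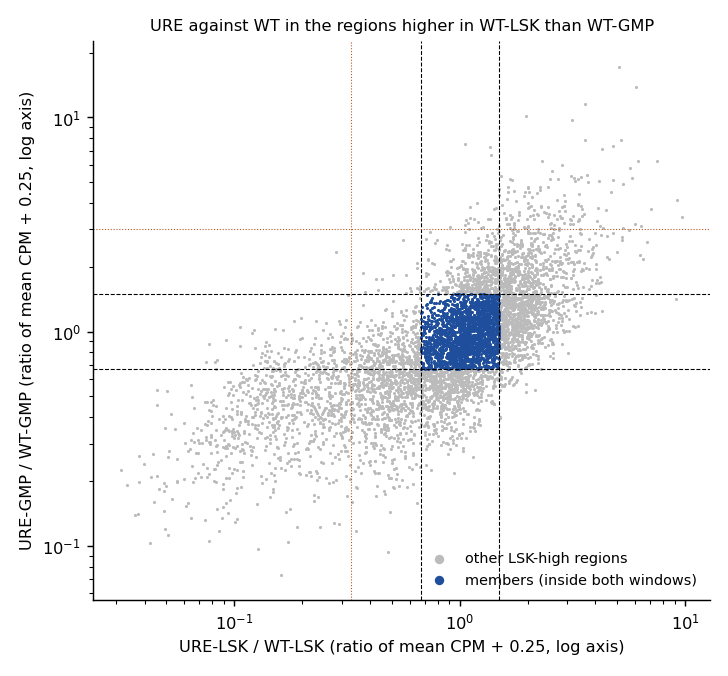
URE against WT in the 6343 LSK-high regions. Each point is a region, with the URE-LSK/WT-LSK ratio on the horizontal and the URE-GMP/WT-GMP ratio on the vertical axis (ratios of group means in CPM plus 0.25, log axes). Dashed lines mark 0.67 and 1.5 and enclose the 1954 members, and dotted lines mark 0.33 and 3. The members form the middle of 1 continuous cloud, with no gap at the edges of the window.

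The edges of the rule cut through this cloud. A region near Nfatc2 with a WT-LSK/WT-GMP ratio of 2.9998 was left out, while one near Pcgf5 with 3.0001 was kept. At the lower edge of the URE-LSK/WT-LSK window a region near Zfp1 with 0.6701 was in and one near Tnfrsf19 with 0.6696 out, and at the upper edge 1.4998 near Fam43b was in and 1.503 near Pdha2 out. For URE-GMP/WT-GMP, 0.6701 near Clpb and 1.4993 near Ifnab were in, and 0.6692 near Ipo8 and 1.5005 near Adgrl2 out. For WT-LSK, 2.002 near Htr6 was in and 1.998 near Shb out. Scaling the libraries by TMM in place of the column sums gave 1584 members, of which 1428 were among the 1954, and RLE scaling gave 1406, of which 1206 were. These scalings moved the median log2 of URE-LSK/WT-LSK over all regions from 0.01 to 0.12 (TMM) and 0.16 (RLE), and the median of the members' ratio itself from 1.09 to 1.18 and 1.22.

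The 12 members with the most WT-LSK signal were wide regions, of 741 to 1282 bp against a median of 348 bp, and CPM is not given per length. The first lay in an intron of Capn3, a calpain protease (chr2:120499735-120500651). It had 56.9, 66.2 and 66.4 CPM in the WT-LSK libraries and 83, 75.2 and 86.9 in LSK of URE, but 14.9, 16.5 and 25.5 in GMP of WT and 20.3, 16.9 and 26.2 in GMP of URE. The groups did not overlap between cell types, and the URE-LSK libraries were all above those of WT-LSK. The promoter region of Klf12, a Krüppel-like repressor (chr14:100284223-100285417), had 57.8, 59.7 and 63.3 CPM in LSK of WT, 60, 57.4 and 40 in LSK of URE, 16.8, 14.6 and 15.4 in GMP of WT and 15.2, 13.5 and 13.6 in GMP of URE. A region 284 kb downstream of the start of Gata3, a transcription factor of T and innate lymphoid cells, in an intron of a non-coding RNA gene (chr2:9593764-9594688), had 55.3, 61.5 and 63.4 CPM in LSK of WT and 75, 77.7 and 69.3 in LSK of URE. In GMP it had 11.8, 14.8 and 26 in WT and 19.9, 16.4 and 23.3 in URE, and WT-GMP replicate 3 was the highest GMP library.

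The other members of this group lay near Egfl7, a secreted vascular factor (9.2 kb upstream, chr2:26571352-26572299), Flt1, a receptor of vascular endothelial growth factor (intron, chr5:147657521-147658497), Uaca, Samm50, Ak4, Rplp1, Tagln, Fndc11 (promoter) and Tcof1. The Flt1 region had 39.6, 41.3 and 51.5 CPM in LSK of WT and 56.4, 52.4 and 50.8 in LSK of URE, against 8.13, 9.87 and 19.5 in GMP of WT and 8.91, 6.4 and 11.6 in GMP of URE. The WT-LSK/WT-GMP ratio was highest for the regions in an intron of Tcof1 (7.52, and 6.87 in URE), 40.9 kb from the start of Rplp1 (6.13, and 8.58 in URE) and in an intron of Ak4 (5.51, and 6.36 in URE). It was smallest for Samm50 (3.07, and 4.27 in URE). The Fndc11 promoter region had 3.24 in WT and 2.1 in URE, with 16.1 to 17.1 CPM in GMP of WT and 20.5 to 22.9 in GMP of URE.

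Genes for transcription factors of stem cells had members at several loci, in a share near that of all regions. Of the 735 regions nearest to a gene of a list of 30 such genes, 13 (1.77%) were members, against 1.61% of all regions, among them 3 at Hlf, 3 at Lmo2, 2 at Mecom and 2 at Prdm16. Of these regions 55 were LSK-high, 5 were lost in mutant LSK and 1 stayed open in mutant GMP. Among the 55, 23.6% were members, against 30.8% of all LSK-high regions. Without WT-GMP replicate 3 the list had 24 members (3.27%, against 2.19% of all regions). This choice was made after seeing the data.

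Hlf encodes a PAR bZIP factor that marks stem cells. Its strongest member (chr11:90334569-90335787), intergenic and 55.7 kb downstream of the start, had 9.09, 8.28 and 11.3 CPM in LSK of WT and 12.5, 16 and 9.58 in LSK of URE, against 0.908, 0.917 and 1.28 in GMP of WT and 0.897, 0.675 and 0.864 in GMP of URE. LSK and GMP were far apart in both genotypes, with ratios of 7.64 and 12.2. The Meis1 member, 93.4 kb upstream of the gene of this HOX cofactor (chr11:19112209-19112559), had 5.12, 5.29 and 8.79 CPM in LSK of WT, 7.33, 8.15 and 5.48 in LSK of URE, 0.33, 0.24 and 0.686 in GMP of WT and 0.387, 0.241 and 0.432 in GMP of URE. Its ratios, 9.94 in WT and 12 in URE, were the largest among the stem cell factor regions named apart from that of Hlf in URE.

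Mecom encodes the EVI1 factor needed to maintain stem cells. The member in its intron (chr3:30476992-30477347) had 7.55, 7.76 and 8.83 CPM in LSK of WT and 9.55, 10.2 and 8.39 in LSK of URE, against 1.12, 1.2 and 2.29 in GMP of WT and 0.979, 1.61 and 2.14 in GMP of URE. A region in an intron of Prdm16, a related zinc finger factor (chr4:154496990-154497612), had 16.1, 17.8 and 24.2 CPM in LSK of WT, 19.8, 18.6 and 19.7 in LSK of URE, 2.15, 3.41 and 4.73 in GMP of WT and 2.55, 2.32 and 3.64 in GMP of URE. Here the URE-LSK libraries lay within the range of WT-LSK.

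Lmo2 encodes an adaptor that joins GATA and E-box binding factors. Its member 27 kb upstream (chr2:103930676-103931355), whose sequence is printed above, had 23.1, 24.5 and 31.6 CPM in LSK of WT and 32.6, 33.9 and 26.2 in LSK of URE, against 7.8, 6.66 and 9.6 in GMP of WT and 8.58, 8.01 and 9.32 in GMP of URE. The WT-LSK/WT-GMP ratio of 3.22 became 2.98 with RLE scaling. The Meis2 member was weak, with 1.4 to 2.27 CPM in LSK of WT, 0.862 to 1.58 in LSK of URE and at most 0.568 in any GMP library.

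**Figure D2:**
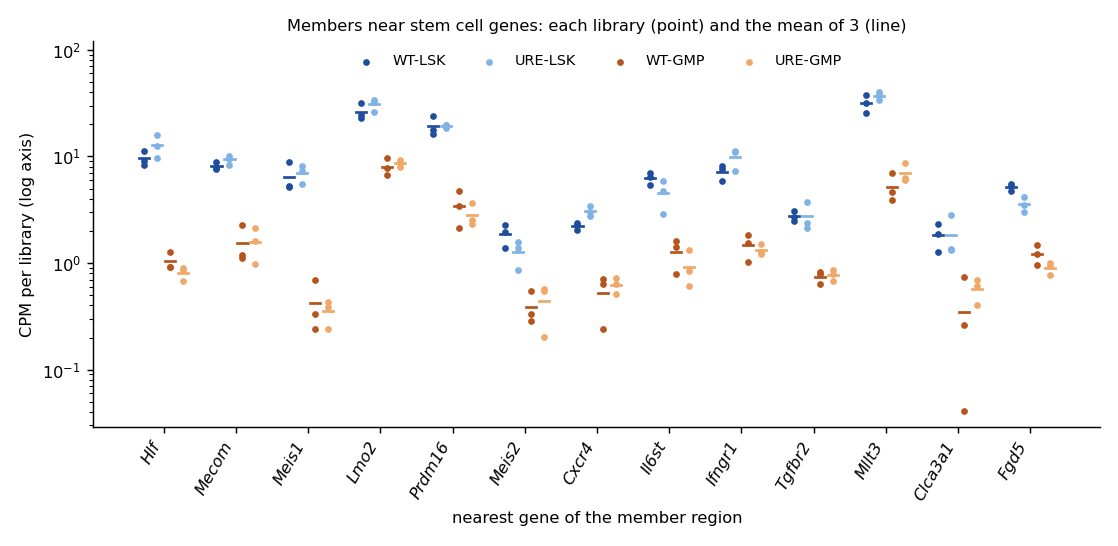
Accessibility of the strongest member near each stem cell gene. Points are single libraries, lines the mean of 3, on a log axis of CPM, for genes of stem cell transcription factors (Hlf to Meis2) and of surface molecules, receptors and niche signals (Cxcr4 to Fgd5). In each of the 13 regions the LSK libraries of a genotype lie above its GMP libraries, and the rule fixed the similarity of WT and URE within a cell type.

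Receptors and surface molecules of stem cells gave 9 members among 475 regions (1.9%, against 1.61% of all regions). The member 236 kb from the start of Mllt3, a chromatin reader that sustains stem cells (chr4:87570179-87571052), had 25.7, 31.8 and 37.7 CPM in LSK of WT, 40.5, 37.4 and 33.5 in LSK of URE, 3.92, 4.61 and 7 in GMP of WT and 6.26, 6.05 and 8.69 in GMP of URE. In an intron of Fgd5, a gene used to mark stem cells (chr6:91992305-91992904), the URE-LSK libraries, with 2.99, 4.16 and 3.51 CPM, were all under those of WT-LSK, with 4.78, 5.46 and 5.31. The GMP libraries had 0.949 to 1.49 in WT and 0.773 to 0.997 in URE.

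Other members of this list lay near Ifngr1, Il6st, Cxcr4, Tgfbr2 (2) and Clca3a1. Near Ifngr1, which encodes a subunit of the interferon gamma receptor, the values were 5.89 to 8.17 CPM in LSK of WT and 7.35 to 11.4 in LSK of URE, and 1.03 to 1.85 in GMP of WT and 1.22 to 1.5 in GMP of URE. Near Il6st, the shared receptor subunit of the interleukin 6 family, they were 5.44 to 6.94 and 2.86 to 5.88 in LSK and 0.784 to 1.6 and 0.614 to 1.32 in GMP. The Tgfbr2 region in the intron lay at the edge of the rule, with a WT-LSK/WT-GMP ratio of 3.001. At the Clca3a1 promoter WT-GMP replicate 1 had 1 count and replicate 3 had 0.733 CPM, so its ratio of 3.48 has little depth behind it.

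Of the lists of other lineages, the lymphoid and erythroid ones held more members per region than all regions, and the others a similar or smaller share. Of 397 regions nearest to genes of T and innate lymphoid cells, 17 (4.28%) were members, and of 270 nearest to early lymphoid and B lineage genes 9 (3.33%). These are counts beside the 1.61% of all regions and no test was made. With RLE scaling the T list had 11 members (2.77%, against 1.16% of all regions), an alternative added after seeing the data. Erythroid genes had 4 of 117 (3.42%), megakaryocyte and platelet genes 3 of 185 (1.62%), quiescence and cell cycle genes 5 of 374 (1.34%) and mast cell genes 1 of 182 (0.549%). No member was nearest to a gene of the granulocyte and monocyte list (288 regions, 4 of them LSK-high) or the interferon list (77 regions, 4 LSK-high). Counting only start sites within 50 kb, the lists held 27 members in place of 57. These were 9 of 180 regions for the T list, 3 of 141 for the B list and 2 of 78 for the erythroid list, with the rest in other lists. The share of members among all regions under this limit was not computed. It is not the 1.61% above, because 38.6% of members and 26.8% of all regions lay over 50 kb from a start site. The B and erythroid counts under this limit are too small to judge.

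Cd2 encodes an adhesion molecule of T cells. The region 75.6 kb from its start (chr3:101211966-101212748) had 23.4, 22.2 and 25 CPM in LSK of WT and 30.9, 31 and 24.1 in LSK of URE, against 1.98, 1.55 and 3.81 in GMP of WT and 1.22, 1.56 and 2.21 in GMP of URE. The cell types differed 8.83-fold in WT and 15.1-fold in URE by the ratio of the rule. Tcf7 encodes TCF-1, which starts the T lineage, and the region 35.5 kb upstream (chr11:52318154-52318859) had 29, 28.1 and 29.7 CPM in LSK of WT, 40.1, 42.1 and 40.3 in LSK of URE, 7.55, 7.78 and 10.7 in GMP of WT and 9.46, 9.24 and 13 in GMP of URE. All 3 URE-LSK libraries lay above those of WT-LSK here.

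A region 1.7 kb upstream of a start of Lck, the kinase of the T cell receptor (chr4:129575010-129575757), had 26.2, 29.8 and 30.3 CPM in LSK of WT, 30.3, 29.5 and 25.9 in LSK of URE, 6.85, 9.57 and 9.6 in GMP of WT and 7.73, 6.27 and 6.98 in GMP of URE. In an intron of Il2ra, a subunit of the interleukin 2 receptor (chr2:11653339-11654055), the values were 16.9 to 21.8 and 20.1 to 27.2 CPM in LSK of WT and URE, and 3.71 to 5.12 and 4.16 to 6.14 in GMP. In an intron of Rora, a nuclear receptor of innate lymphoid cells (chr9:68942491-68942980), WT-GMP ranged from 1.98 to 6.13 CPM, a wide spread with replicate 3 at the top, against 16.2 to 19.9 in LSK of WT, 22.4 to 24.4 in LSK of URE and 3.94 to 5.12 in GMP of URE. The Tox member, in an intron of a non-coding RNA gene 577 kb upstream of this T cell factor (chr4:7567685-7568067), had 3.68 to 5.89 and 3.27 to 10.8 CPM in LSK and at most 0.497 in any GMP library.

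Of the early lymphoid genes, Dntt encodes the terminal transferase of lymphoid progenitors. Its upstream member (9.9 kb, chr19:41019155-41019551) had 7.78, 7.28 and 6.48 CPM in LSK of WT, 6.78, 5.44 and 6.09 in LSK of URE, 0.619, 0.677 and 1.11 in GMP of WT and 0.408, 0.482 and 0.659 in GMP of URE. The Dntt promoter region was the other member of that gene, with 2.36 CPM in LSK of WT and 0.154 CPM in GMP of WT. Bcl11a, a repressor of lymphoid and erythroid cells, had 4 members of 67 regions, from 105 to 397 kb from its start, with WT-LSK/WT-GMP ratios of 3.18 to 7.69. Satb1 had 1 and Foxo1 had 2.

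Among erythroid genes, Zfpm1 encodes FOG-1, the GATA cofactor. Its stronger member of 2 (6.9 kb upstream, chr8:122274993-122275485) had 12.5, 12.2 and 16.9 CPM in LSK of WT and 19, 17.4 and 18.2 in LSK of URE, against 3.26, 3.21 and 6.84 in GMP of WT and 2.96, 2.57 and 3.84 in GMP of URE. All 3 URE-LSK libraries lay above those of WT-LSK, and its WT ratio of 3.01 became 2.79 with RLE scaling. The Car2 and Slc4a1 members were weaker, with 4.24 and 3.29 CPM in LSK of WT. Itgb3, the platelet integrin, had 1 member at 2.34 CPM.

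Most loci held a single member. The 1954 members had 1619 nearest genes, of which 1347 had 1 member and 12 had 4 or more. Klf12 and Msi2 had 5 each. For Klf12 these were 5 of 14 LSK-high regions, and for Msi2, an RNA-binding protein of stem cells, 5 of 7, all in its introns. For Nfatc2, Mrpl37 and Pitpnb all 4 LSK-high regions were members. Bcl11a, Foxp1, Mylk4, Rora, Rwdd3, Tmem131l and Zbtb20 also had 4 members each. The strongest Msi2 member (chr11:88624792-88625645) had 19.9, 14.1 and 16.4 CPM in LSK of WT, 20.7, 20.3 and 13.4 in LSK of URE, 3.43, 2.32 and 3.95 in GMP of WT and 2.26, 2.86 and 2.68 in GMP of URE. In an intron of Zbtb20 (chr16:43376691-43377268), whose sequence above holds the PU.1 letters, the libraries had 23.4, 24.8 and 25.8 CPM in LSK of WT and 35, 39.8 and 26.9 in LSK of URE, against 2.81, 3.63 and 6.48 in GMP of WT and 3.47, 2.73 and 5.89 in GMP of URE. Of all members, 412 (21.1%) had another member within 50 kb, against 13.3% of all regions that had a member there.

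Because the rule used all libraries, the ratios were read again in libraries left out of it. The regions were peaks called per group, and same-numbered libraries deviated together in some pairs of groups. The left-out libraries were therefore not independent of the choice, and the values are a description. When the rule was applied without replicate 1 of every group, 1793 regions qualified. Their median WT-LSK/WT-GMP ratio in the left-out libraries was 4.5, and it was at least 3 in 84.9% of them. Without replicate 2, 1809 qualified, with a median of 4.14 and 82.6% at 3 or more. Without replicate 3, 2227 qualified, with a median of only 3.15 and 55% at 3 or more, against a median of 4.06 in the libraries that chose them. The ratio was at least 2 in 98.6%, 98% and 91.4%. Over all regions the median in the left-out libraries was 1.09, 1.03 and 1.04.

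The difference between cell types in URE was read in the same way. The median URE-LSK/URE-GMP ratio there was 4.79, 5.47 and 3.63 without replicates 1, 2 and 3, and at least 3 in 86.6%, 91.7% and 67.8% of the regions. The left-out URE-LSK/WT-LSK ratio stayed within 0.67 to 1.5 in 74.3%, 66.7% and 71.4% of the regions, and the URE-GMP/WT-GMP ratio in 70.9%, 80.3% and 59.4%. In replicate 3 the medians of both ratios were under 1, at 0.886 and 0.765. Over all regions the medians in left-out replicates 1, 2 and 3 were 0.961, 1.002 and 1.001 for URE-LSK/WT-LSK. For URE-GMP/WT-GMP they were 0.989, 0.956 and 0.927, and for URE-LSK/URE-GMP 0.995, 1.02 and 1.06. The shares of all regions within the window or at 3 or more were not computed, so the members' shares have no background beside them.

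**Figure D3:**
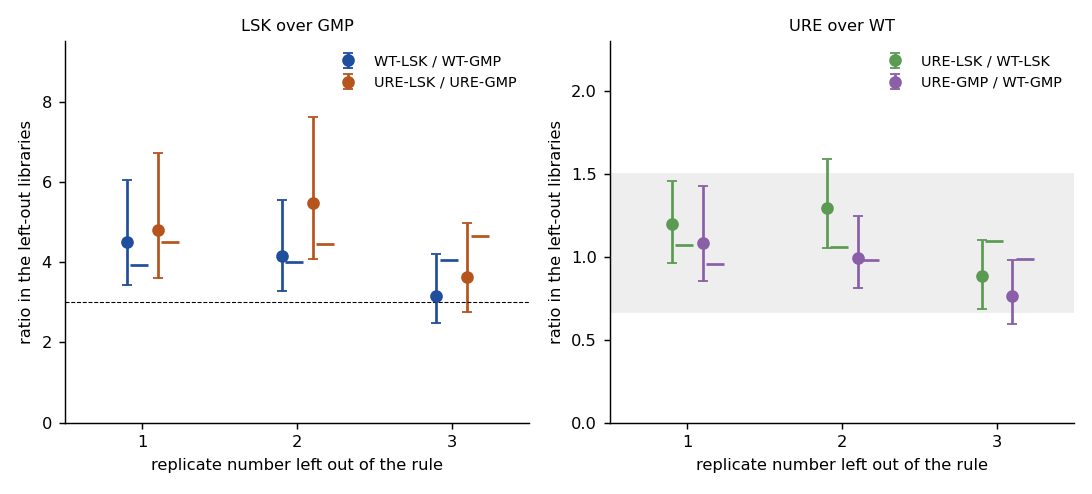
Ratios read in libraries that the rule had not used. For each replicate number left out, circles and bars give the median and the lower and upper quartiles over the regions chosen with the other libraries, read in the left-out libraries, and horizontal ticks the median in the libraries that chose them. The dashed line marks a ratio of 3 and the grey band 0.67 to 1.5. The medians for replicate 3 lie under its ticks in both panels, and those for replicates 1 and 2 lie at or over them.

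The rule did not use position or sequence. Members were mostly distal: 7.42% lay within 500 bp of a start site (all regions 15.8%), 51.8% in introns and 36.7% between genes, and the median distance to the nearest start site of a protein-coding gene was 32527 bp (all regions 18153 bp). The regions lost in mutant LSK were still more distal (4% at promoters, 45981 bp), and those staying open in mutant GMP less so (8.23%, 27272 bp). The median width of the members was 348 bp (all regions 322 bp) and the median GC content of their centre 50% (all regions 49.7%, lost in mutant LSK 47.7%). The 489 members with the largest WT-LSK/WT-GMP ratios, 5.12 to 20.5, lay 44119 bp from a start site at the median and 4.09% were promoters. Among the 489 with the smallest, 3 to 3.37, the values were 26133 bp and 9.82%. Members were found on 20 chromosomes, with 1.24% to 2.01% of the regions of each.

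Motif letters were searched in the central 300 bp on either strand: GAGGAAGT for PU.1, CAGGAAGT for ERG/FLI, CCGGAAGT for other ETS factors, AACCACA for RUNX, AGATAA for GATA, TTGCNNAA for CEBP, TGANTCA for AP-1, GAAANNGAA for IRF, CAGCTG and CACCTG for E-boxes, TTANGTAA for PAR bZIP factors such as HLF, TGACAG for MEIS, TGATTNAT for HOX-PBX, CTTTGAT for TCF/LEF, GGCNGTT for MYB, GGGTGTGG for KLF, TTCCNGGAA for STAT, TGACGTCA for CRE, and longer patterns for NFI and CTCF. The 3 ETS patterns share their last letters but cannot match at the same position. Letters of different motifs may overlap or touch.

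PU.1 letters were found in 78 members (3.99%), against 8.7% of all regions and 13.9% of the 875 regions lost in mutant LSK. In the 158 regions staying open in mutant GMP the share was 3.16% (5 regions). ERG/FLI letters, which differ from those of PU.1 in the first letter, showed the opposite order, with 10.3% of members, 7.77% of all regions and 6.17% of the regions lost in mutant LSK. Without promoters the PU.1 shares were 4.04%, 9.55% and 13.7%. Within LSK-high regions, 78 of 436 with PU.1 letters (17.9%) were members and 122 (28%) were lost in mutant LSK. Of the 5907 without them, 1876 (31.8%) were members and 753 (12.75%) were lost. The median URE-LSK/WT-LSK ratio was 0.632 with and 1.04 without the letters. The members that held PU.1 letters had a median WT-LSK/WT-GMP ratio of 3.95, and those without 3.96.

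E-box, CEBP and CTCF letters stood on the same side of all regions in members and in the regions lost in mutant LSK. CACCTG was in 29.6% of members and 30.9% of the lost regions (all regions 19.2%), CAGCTG in 26.8% and 25.1% (20.5%), and either E-box in 48.3% and 47.4% (35.5%). CEBP letters were in 10.1% and 9.49%, under the 16.4% of all regions, and CTCF in 0.512% and 0.114%, against 3.75%. RUNX letters were in 19.9% of members, 15.3% of the lost regions and 28.5% of those staying open in mutant GMP (all regions 14.4%), and AP-1 letters in 14.9%, 8.23% and 20.3% (12.1%). GATA letters were in 12.1% of members, 12.7% of the lost regions and 12.9% of all regions. HOX-PBX letters were in 5.48% of members and 3.26% of all regions, but in 6.74% of the lost regions and 6.69% of all LSK-high regions. Of all LSK-high regions, 19.9% held RUNX letters, 46.5% either E-box and 14.4% AP-1 letters, close to the shares of the members. Of the 20 motifs 11 were more frequent in members than in all regions. Regions are not replicates, so no p-value is given for these shares.

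**Figure D4:**
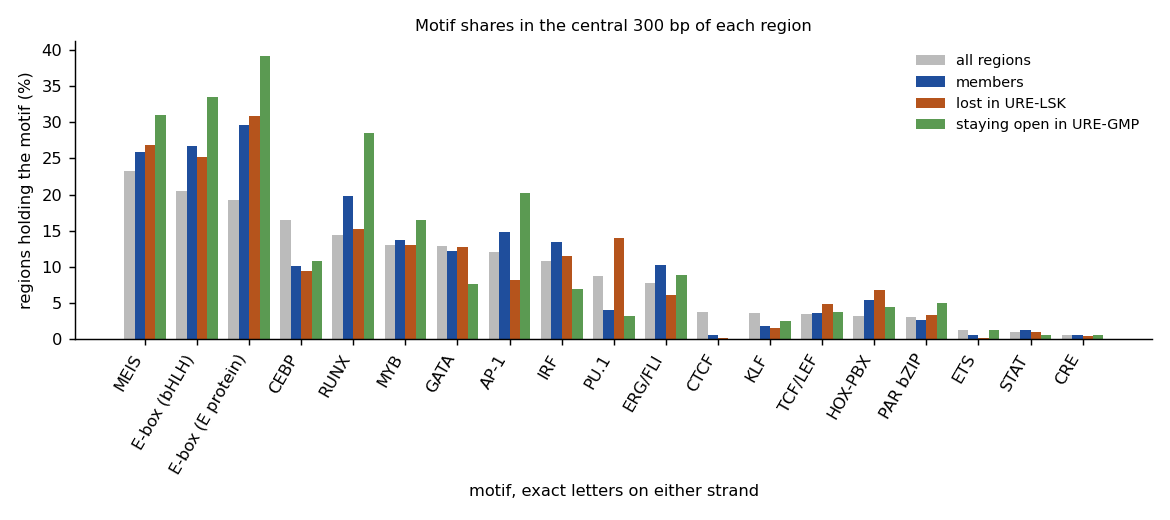
Share of regions whose central 300 bp hold the letters of each motif, in percent, for all 121336 regions (grey), the 1954 members (blue), the 875 regions lost in mutant LSK (orange) and the 158 staying open in mutant GMP (green). NFI, found in 1 member, is not drawn. PU.1 letters are in 3.99% of the members and 13.9% of the lost regions, while the bars of both E-boxes are nearly level between these sets.

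Promoters of the nearest genes, which are no members, were tested in the edgeR fit over all regions (called at an adjusted p under 0.05 and a fold over 2). The question was whether genes near members also change at their start sites. Of the 1619 genes, 1285 had such a promoter region, 1281 distinct regions in all. Between GMP and LSK of WT, 95 of them (7.42%) were called lower and 11 (0.859%) higher in GMP, against 4.59% lower and 2.3% higher among promoter regions of all genes. In URE 178 (13.9%) were lower and 27 (2.11%) higher, against 7.41% and 3.77%. Between the genotypes 61 (4.76%) were called in LSK, against 5.54% of all genes, and 73 (5.7%) in GMP, against 6.53%, so these shares were near the background. The genotype effect differed between the cell types (interaction term) in 36 (2.81%), against 2.6%, with 20 of them lower (1.56%, against 0.972%). Of those called between the genotypes, 33 were lower in LSK of URE (2.58%, against 3.6%) and 44 lower in GMP (3.43%, against 3.97%). Promoters near regions lost in mutant LSK (575) were lower in GMP in 12.35% of cases in WT and 17.6% in URE. For promoters near regions staying open in mutant GMP (119) the share was 11.8% in WT and 11.8% in URE. The excess of lower promoters was thus not particular to members. The comparisons share libraries with each other and with the rule, and the difference of these shares was not tested.

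Of 45 named genes with such a promoter region, 3 were called lower in GMP in WT and none higher, and 8 were called lower and 1 higher in URE. Among promoter regions of all genes, 4.59% were lower and 2.3% higher in WT, and 7.41% and 3.77% in URE. The 45 genes were named for their members, and these counts were not compared by a test. The Nfatc2 promoter region (chr2:168588935-168590069), of a calcium-dependent T cell factor, had 38.3, 37.1 and 36.3 CPM in LSK of WT, 48.8, 51.2 and 40.5 in LSK of URE, 13.1, 11.4 and 13 in GMP of WT and 19.6, 17.2 and 17.6 in GMP of URE. It fell from LSK to GMP by 1.51 ± 0.11 (SE) on the log2 scale in WT (edgeR adjusted p = 1.07e-07) and by 1.30 ± 0.11 in URE (adjusted p = 5.88e-08). The Tox promoter region fell by 1.18 ± 0.12 in WT (edgeR adjusted p = 1.63e-06) and fell by 1.255 ± 0.12 in URE (adjusted p = 2.35e-07), with 48.2 to 54 CPM in LSK of WT and 18.5 to 26.1 in GMP of WT. The Lck promoter region (chr4:129558245-129558867) had 8.31, 5.16 and 6.22 CPM in LSK of WT, 7.28, 6.54 and 7.74 in LSK of URE, 1.9, 1.14 and 2.18 in GMP of WT and 3.87, 3.3 and 5.37 in GMP of URE. It fell by 1.86 ± 0.27 from LSK to GMP in WT (edgeR adjusted p = 2.5e-05) and its change in URE was -0.72 ± 0.24, under the fold limit. In GMP it was higher in URE than in WT by 1.39 ± 0.26 (edgeR adjusted p = 0.000285), whereas the member 1.7 kb upstream of a Lck start was chosen for similar levels. The promoter region at another Lck start (chr4:129573509-129573814) was itself a member and so was not tested. Its mean was 5.27 CPM in LSK of WT, 3.65 in LSK of URE, 1.04 in GMP of WT and 1.47 in GMP of URE.

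The Meis1 promoter region had 52.5, 58.3 and 53.4 CPM in LSK of WT and 31.9, 27.8 and 35.4 in GMP of WT, and 49, 46.7 and 40.5 in LSK of URE and 14.3, 16.4 and 15.7 in GMP of URE. The log2 change from LSK to GMP was -0.72 ± 0.11 in WT, under the fold limit, and -1.49 ± 0.11 in URE (edgeR adjusted p = 2.64e-08). The difference of these steps was -0.77 ± 0.16 (edgeR adjusted p = 0.00379), within the fold limit for a call. Between WT-GMP and URE-GMP this promoter region had a log2 change of -0.92 ± 0.11 (edgeR adjusted p = 5.43e-06), also within the fold limit, while the rule held the member 93.4 kb upstream to a URE-GMP/WT-GMP ratio near 1 (0.902). Promoter regions of Prdm16 (-1.03 ± 0.10), Fgd5 (-1.32 ± 0.14), Lef1 (-1.16 ± 0.15), Gata3 (-1.07 ± 0.17) and Uaca (-1.39 ± 0.17) were called lower in GMP in URE and not in WT, where the values were -0.61, -0.63, -0.61, -0.83 and -0.54, and the interaction was within the fold limit in all 5. Its size was -0.43, -0.70 and -0.86 at Prdm16, Fgd5 and Uaca (edgeR adjusted p = 0.0463, 0.0231 and 0.0177) and -0.54 and -0.24 at Lef1 and Gata3 (edgeR adjusted p = 0.0904 and 0.556). The Prdm16 call was lost without URE-GMP replicate 2 (-0.96) and with RLE scaling (-0.97), and that of Gata3 without URE-LSK replicate 1 (-0.92). At Uaca the promoter also fell by 1.75 ± 0.17 between WT-GMP and URE-GMP (edgeR adjusted p = 4.96e-07), while its intronic member had 12.8 to 16.7 CPM in GMP of WT and 10.9 to 12.6 in GMP of URE. The Mecom and Hlf promoter regions were called in no contrast, with log2 changes from LSK to GMP of -0.19 and -0.52 in WT and -0.12 and -0.81 in URE. Zbtb16, the gene of the PLZF factor, had a promoter region that rose in GMP of URE by 1.40 ± 0.14 (edgeR adjusted p = 2.58e-07), against 0.96 ± 0.14 in WT, where it missed the fold limit. The member in its intron was lower in GMP in both genotypes.

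Regions near the members were compared in the same way. Of 15750 non-member regions within 50 kb of a member, 19.5% were called lower and 17.7% higher in GMP in WT, against 16.8% and 21.0% of all regions (37.8% in all). In URE the shares were 24.9% and 23.9%, against 21.6% and 27.6%. Within 10 kb (3537 regions) they were 25.2% lower and 13% higher in WT and 31.5% and 19.7% in URE. Between URE and WT, 37.3% of the neighbours within 50 kb were called in LSK and 39.3% in GMP, against 37.5% and 39.7% of all regions, and the interaction term was called in 8.49% higher and 5.54% lower, against 8.96% and 5.03%. By these counts, whose differences were not tested, neighbours of members were more often lower in GMP than all regions and about as often called between genotypes. The excess of lower calls was not particular to members. Of 5376 regions within 50 kb of a region lost in mutant LSK, 22.45% were lower in GMP in WT and 27.1% in URE. A region lost in mutant LSK lay within 50 kb of 134 members (6.86%, against 4.51% of all regions), and one staying open in mutant GMP of 24 (1.23%, against 1.06%).

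**Figure D5:**
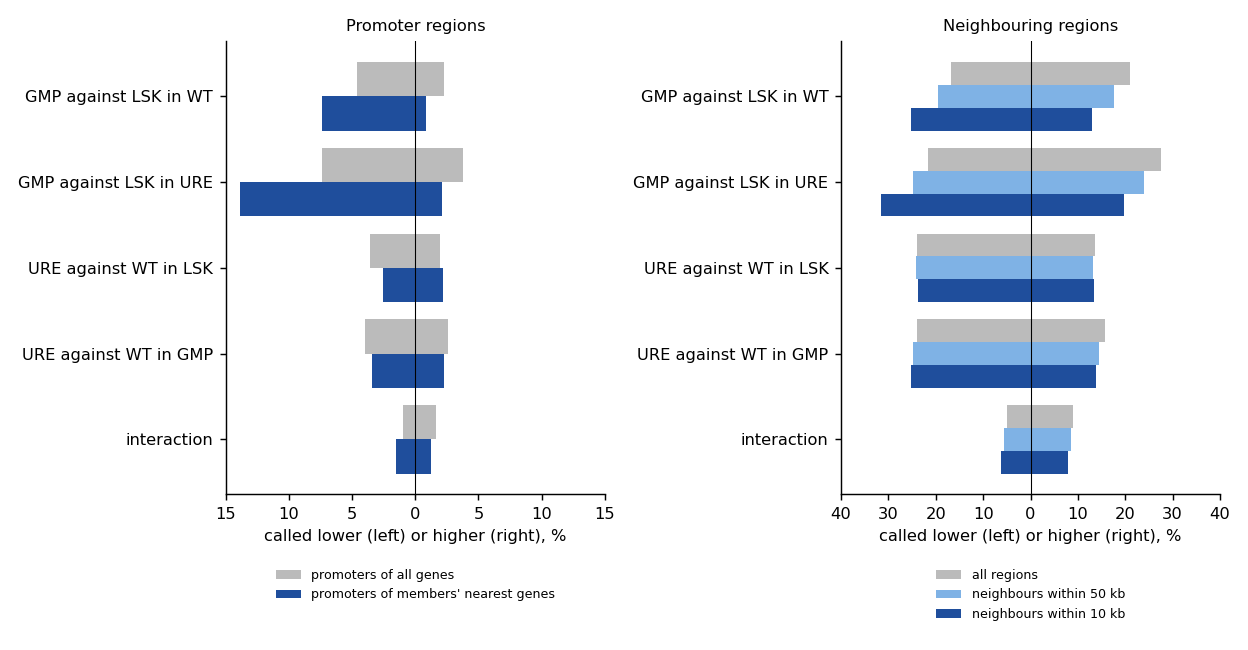
Share of regions called by edgeR (adjusted p under 0.05 and fold over 2), lower to the left and higher to the right, in percent, for promoters (left panel) and neighbouring regions (right panel). Grey bars are the background, all gene promoters or all regions, and blue bars the promoters of the members' nearest genes or the neighbours within 50 kb and 10 kb. The blue bars reach further to the lower side in both contrasts of GMP against LSK (7.42% against 4.59% for promoters in WT) and lie near the grey bars in the contrasts of URE against WT. Promoters near regions lost in mutant LSK, not drawn, were lower in GMP of WT in 12.35% of cases.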

How the data were processed

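ATAC-seq libraries (OmniATAC) of LSK and GMP from WT and URE mice were compared, 3 per group, grouped by the sample labels. The deposited values were raw counts per region: the authors aligned reads to GRCm38 with Bowtie2 after cutadapt, called peaks per group with Genrich, merged them with bedtools and counted with featureCounts (versions not given in the sources used here). Whether read ends or fragments were counted was not given, and counts, not signal shifted to the cut site, were used. Region starts were read as 0-based. Deposited counts were scaled to CPM by the column sum, and 0.25 was added to group means. The members, gene lists and tests were chosen with earlier results of these data known.

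Regions that are no members were tested with edgeR 4.0.16 (quasi-likelihood, two-sided, TMM, filterByExpr, which removed 0 regions; R 4.3.3), with Benjamini-Hochberg adjustment over 121336 regions and calls at an adjusted p under 0.05 and an absolute log2 fold change over 1. The fit was tested on simulated data. Alternatives were DESeq2 1.42.0, other scalings, other limits of the rule, a replicate block and each library left out. Each region was assigned to the nearest start site of a protein-coding gene in GENCODE basic annotation, with promoters within 500 bp of any start site. Sequences and motif letters came from the RefSeq copy of GRCm38.

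Named were the 12 members with the most WT-LSK CPM, the strongest member at each listed gene and the genes nearest to the most members (12 genes because of ties). The promoter regions of all these genes were named too, although the plan gave only those of the listed and the most-hit genes. The regions at the limits of the rule were also named. Sequences were shown for a few of the named members, and that of Zbtb20 was added after values were seen. A few results of this rule are not reported here.

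Total counts of 23072701 to 62204826 per library set the precision, and 3 counts stand for 0.0482 to 0.13 CPM. Same-numbered libraries deviated together from their group means in WT-LSK and WT-GMP (correlations 0.209, 0.245 and 0.253 over regions) and in WT-GMP and URE-GMP (0.115, 0.234 and 0.401), but not in every pair of the other groups. The labels do not say what the numbers share. The labels number the libraries only, and separate mice are stated in the study's methods.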

Additional observations from a re-analysis of the deposited data

Results flagged for a closer look

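The tested promoter region of Lck, the kinase of the T cell receptor, was picked out because its genotype effect differed between the cell types. The effect of the URE deletion in GMP minus that in LSK was 1.14 ± 0.36 (SE) on the log2 scale (edgeR interaction term, adjusted p = 0.0383). The genotype effect was 1.39 in GMP and 0.25 in LSK. The 3 URE-GMP libraries (3.3 to 5.37 CPM) all lay above the 3 WT-GMP libraries (1.14 to 2.18 CPM), and the LSK libraries of both genotypes overlapped (5.16 to 8.31 and 6.54 to 7.74 CPM). The call was lost without any 1 of 8 libraries: WT-LSK replicate 1 or 3, any URE-LSK replicate, WT-GMP replicate 2, or URE-GMP replicate 1 or 3. The values without them were 0.927 to 1.245 with edgeR adjusted p-values of 0.0534 to 0.0945.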

How the results depend on the processing

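The number of members followed the limits of the rule. It was 1047 with a pseudocount of 1, 874 with WT-LSK of at least 5, 4927 and 942 with a WT-LSK/WT-GMP ratio of at least 2 and 4, and 743 and 3726 with a narrower and a wider window for the URE/WT ratios. Leaving out 1 library gave 1624 to 2652 members, the fewest without WT-LSK replicate 3 and the most without WT-GMP replicate 3. The lists held 27 members with start sites within 50 kb only, 36 with RLE scaling, and 60 to 79 without replicate 3 of every group or without WT-GMP replicate 3. Without a fold limit, 684 promoters of the nearest genes were called between the genotypes in LSK and 615 in GMP, 592 and 675 between the cell types in WT and URE, and 129 for the interaction. Leaving out 1 library gave 56 to 66, 73 to 80, 106 to 146, 191 to 221 and 25 to 42 in the same order. Within 10 kb the neighbours called were 1315, 1383, 1352, 1812 and 500, and within 50 kb leaving out 1 library gave 5584 to 6031, 6024 to 6322, 5635 to 6692, 7378 to 7858 and 1616 to 2400. With the replicate block the counts were 61, 72, 108, 206 and 36 promoters and 5931, 6204, 5857, 7674 and 2451 neighbours, and the block changed no call of a named promoter. Of the 15 calls of named promoters 12 held under every alternative run. The exceptions were the Lck interaction, Prdm16 in URE with DESeq2, with RLE scaling (-0.97) and without URE-GMP replicate 2 (-0.96), and Gata3 in URE without URE-LSK replicate 1 (-0.92). None reversed. The causes were not tested. In GMP, where 3 counts stand for up to 0.124 CPM, ratios of the weakest members rest on few counts.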
